A study of Schizosaccharomyces pombe with 3 samples.

Results

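The regions described here are the 2 ends of chromosome III of the fission yeast Schizosaccharomyces pombe, which carry the ribosomal DNA. They were chosen by position alone, as all tiling probes of chromosome III that start within the first 100 kb, or in the last 100 kb up to the array's last tile, from the tile at 2354101 on. This gave 304 probes at the left end and 305 at the right end, 609 of 41551 genome probes. Each probe stands for a tile of 300 bp.

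The study measured where the cohesin subunit Psc3, tagged with GFP, lay on chromatin by chromatin immunoprecipitation on 2-colour tiling arrays (ChIP-chip). ChIP DNA carried Cy5 and whole-cell extract (input) carried Cy3. There were 3 arrays, 1 per group. The wild-type strain carried mat1Msmto, the markers leu1-32 and ade6-216, and Psc3-GFP::kanMX; it and the clr4d strain grew in rich medium at 30 °C, and the cdc10-v50 strain grew at 26 °C and was held at 35 °C for 4 h, which arrests it in G1. Cells of all 3 groups were fixed at 18 °C, in steps of 30 and 45 min. For the mutants the labels give only the allele as genotype, so whether they carry the other wild-type markers is not known here. In cdc10-v50 the allele, the heat shift and the G1 arrest cannot be told apart. With 1 array per group no difference has a replicate check, no test was possible, and the SD after each mean is the spread between probes of that array. Values are log2 of ChIP over input, centred on the median of all genome probes of the array, so 0 is the genome's typical level and 1 is 2-fold above it; single channels are given on the same log2 scale against their own array median.

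The wild-type array had a limit that bears on these regions. Its Cy5 channel was at the scanner's ceiling at 2273 probes of the genome (5.47%), and at 76 of the 609 probes of the ends, while no probe of either mutant was at its ceiling. There the wild-type value can only be read as a lower bound. Rises over wild type there are upper limits, given with no fold, and wild type over a mutant is a minimum. The wild-type array was also read with another version of the scanner's software than the mutants, so array and genotype cannot be told apart in comparisons with wild type; clr4d and cdc10-v50 were read with the same version. As a label check, the 4 probes of the clr4 gene gave a median input signal of 7.49 in clr4d, against 1496 in wild type and 1335 in cdc10-v50, and 1 other genome probe fell as far in clr4d against wild type.

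Cohesin is a ring-shaped complex that holds sister chromatids together; Psc3 is its main mitotic stromalin (SA) subunit in fission yeast. At heterochromatin, the histone H3 lysine 9 methyltransferase Clr4 makes the mark that the HP1 protein Swi6 binds, and Swi6 brings Psc3 there. Cdc10 is a subunit of the transcription factor that drives genes of the G1/S transition. The ribosomal DNA of this species lies as tandem repeats at both ends of chromosome III, outside the unique sequence. Each repeat holds 1 transcription unit (18S, 5.8S and 28S rRNA, cut from a single precursor) and a spacer, in which replication begins and which holds barriers to replication forks.

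In the reference assembly (ASM294v3) the first 23.1 kb of chromosome III hold 7 rRNA genes on the minus strand: 18S genes SPRRNA.42, SPRRNA.43 and SPRRNA.44, 28S genes SPRRNA.47 and SPRRNA.48, and 5.8S genes SPRRNA.50 and SPRRNA.51. The array's build was not given in the sources used here. Input signal followed GC content of the left end best when tiles were moved by 80 bp (r = 0.58 over 304 probes, 0.56 with no move), so left tiles could be set against annotated genes. At the right end the best move was -950 bp (r = 0.53, against 0.14 with no move), so no gene was assigned there and its positions are the array's own. Of the 25-base words of the left end, 99.0% to 100% between 0 and 25 kb occur elsewhere in the reference, 88.4% to 96.2% of them at the right end; between 30 and 35 kb this falls to 42.1%, and between 50 and 70 kb to 0. The outer signals of the ends therefore pool both ends and all repeats, and fewer repeats and less Psc3 per repeat cannot be told apart in a single channel.

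The following stretches of the reference show sequence at or near the probes. The first lies in the spacer, where both mutants were high; it is annotated as the lncRNA gene SPNCRNA.6667 (chrIII:3857-4057, plus strand, 38.8% GC), and the same 201 bases stand in the next repeat (chrIII:14727-14927) with 0 differences. At the right end (chrIII:2449217-2449417, minus strand) they stand with 1 difference, shown as a capital. The next shows the start of the 28S gene SPRRNA.47 (chrIII:9342-9541, minus strand), where clr4d was at the genome's median. The last shows a unique stretch inside the left end, between the convergent genes SPCC757.06 and ctt1 (chrIII:56192-56491, written on the plus strand). With no move of the tiles, this interval was near 1 in all 3 arrays. Tiles from 50 to 75 kb matched best at a move of 370 bp, so which tiles met it is not settled. All are ASM294v3, RefSeq, 5′ to 3′.
Spacer, left end: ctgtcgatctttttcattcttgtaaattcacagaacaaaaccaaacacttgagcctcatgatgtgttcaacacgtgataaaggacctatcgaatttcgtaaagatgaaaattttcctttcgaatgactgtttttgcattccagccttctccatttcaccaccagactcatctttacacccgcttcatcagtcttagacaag
Spacer, right end: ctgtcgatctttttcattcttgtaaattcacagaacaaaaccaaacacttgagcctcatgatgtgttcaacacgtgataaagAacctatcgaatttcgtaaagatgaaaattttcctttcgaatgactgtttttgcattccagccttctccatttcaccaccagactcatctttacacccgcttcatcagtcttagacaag
28S gene, first 200 bases: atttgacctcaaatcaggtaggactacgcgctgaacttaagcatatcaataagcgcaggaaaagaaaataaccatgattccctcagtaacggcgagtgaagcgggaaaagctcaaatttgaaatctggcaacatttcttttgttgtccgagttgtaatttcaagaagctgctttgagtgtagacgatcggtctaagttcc
Interval between SPCC757.06 and ctt1: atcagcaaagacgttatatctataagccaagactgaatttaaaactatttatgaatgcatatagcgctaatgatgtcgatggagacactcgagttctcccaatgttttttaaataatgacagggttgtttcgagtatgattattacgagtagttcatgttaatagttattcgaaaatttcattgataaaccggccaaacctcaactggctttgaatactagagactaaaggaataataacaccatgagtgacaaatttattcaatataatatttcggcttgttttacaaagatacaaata

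Within the rDNA, the ratio of Psc3 ChIP over input was highest in the spacer in both mutants. Over the rRNA genes themselves it was near the genome's median in clr4d. Input differed between spacer and genes too, as given below. Over 22 spacer tiles of the left end, the clr4d ratio had a lowest value of 0.63, a median of 2.80 and a highest of 4.51, with a mean of 2.63 ± 1.26, which is 6.2-fold above the genome's median. In cdc10-v50 the 21 measured spacer tiles ran from 1.98 through a median of 4.04 to 5.67, with a mean of 3.72 ± 1.15, or 13.1-fold. Every spacer tile of both mutants lay above the genome's median.

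Over the 28S gene, the large-subunit rRNA, the 16 tiles in clr4d ran from -0.26 to 0.94 with a median of 0.04 and a mean of 0.10 ± 0.32. In cdc10-v50 its 14 measured tiles ran from 1.28 to 2.75, with a mean of 1.75 ± 0.40. The 18S gene, the small-subunit rRNA, gave -0.01 ± 0.49 over 11 tiles in clr4d and 1.64 ± 0.43 in cdc10-v50. The 6 tiles between 18S and 28S, which hold the 5.8S gene, gave 0.38 ± 0.54 and 1.27 ± 0.15. So the ratio over the genes was near the genome's median in clr4d and above it in cdc10-v50. The spacer ratio exceeded that of the 28S gene by 2.53 in clr4d and by 1.97 in cdc10-v50 (5.79-fold and 3.91-fold). By channel, spacer minus 28S gene was 0.58 in Cy5 and -1.95 in Cy3 for clr4d. For cdc10-v50 it was 0.89 in Cy5 and -1.07 in Cy3. Lower input in the spacer thus made up the larger part of the excess in both mutants.

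**Figure D1:**
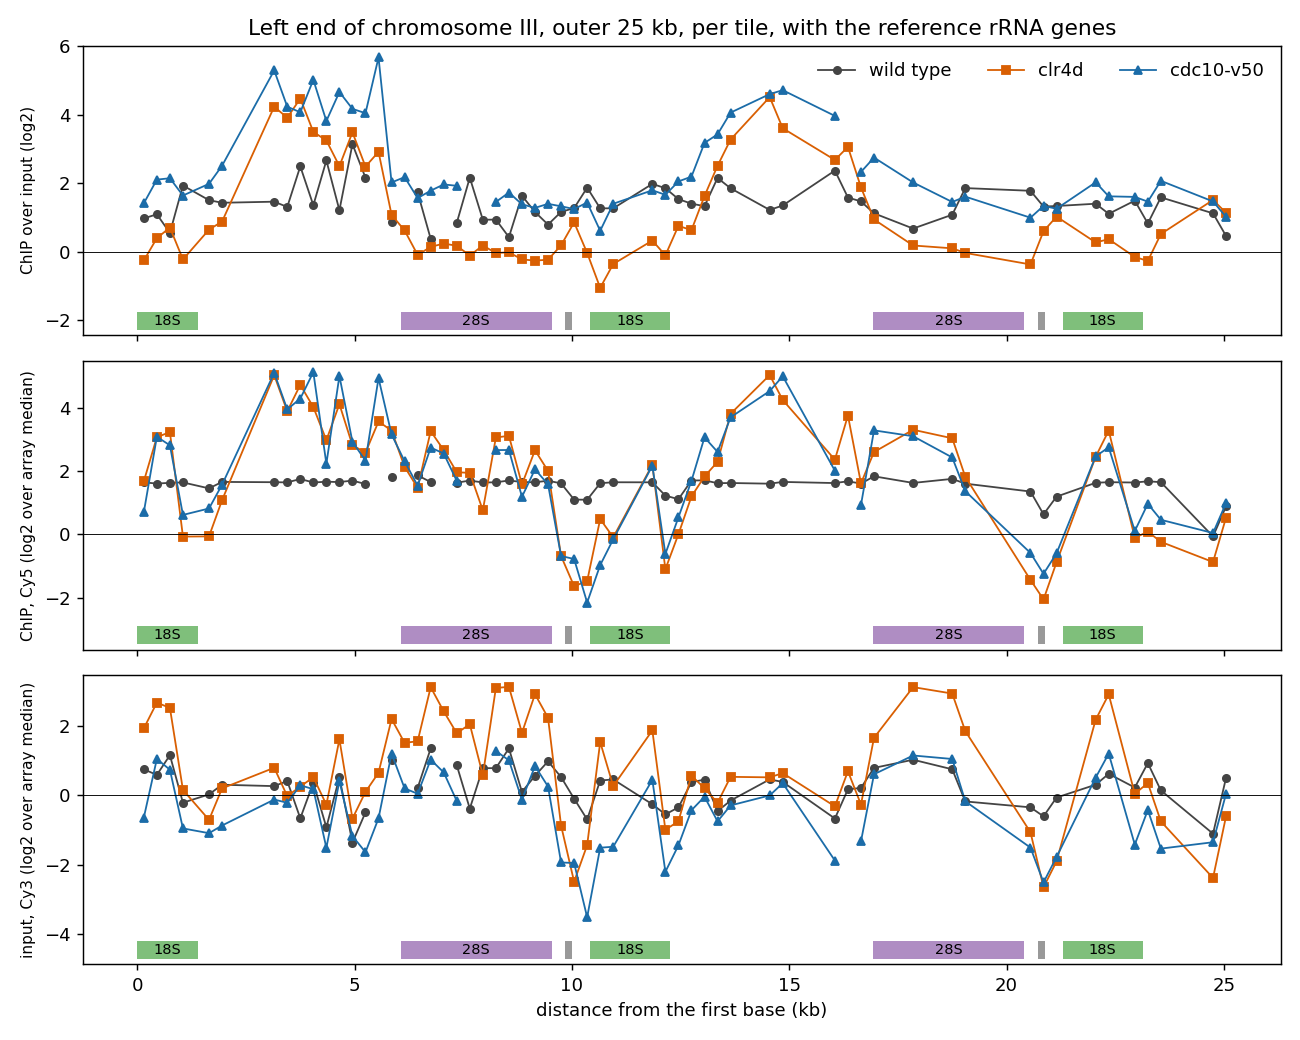
Log2 ratio (top), Cy5 ChIP (middle) and Cy3 input (bottom) of each tile in the outer 25 kb of the left end against distance from the first base in kb, with the reference 18S (green), 28S (purple) and 5.8S (grey) genes below; 1 point is 1 tile, and lines break at tiles left out. Both mutants lie between 2.49 and 5.67 at 3 to 5.4 kb and rise again near 14.4 kb, between the genes, while wild-type Cy5 stays flat at its ceiling.

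The rise was steep. In clr4d the tile at 1801 gave 0.88 and the tile at 3001 gave 4.23; in cdc10-v50 the same tiles gave 2.51 and 5.29. Towards the 28S gene the clr4d value went from 2.92 at 5401 to 1.08 at 5701 and 0.62 at 6001, and that of cdc10-v50 from 5.67 to 2.02 and 2.18. Spacer tiles next to the 18S genes, at 1501 and 12301, were among the lowest of the spacer, with 0.65 and 0.76 in clr4d, while cdc10-v50 had 1.98 and 2.05. Tiles at the border with the 28S gene overlapped between the 2 classes in clr4d, where the highest 28S tile, at 16801, gave 0.94.

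The pattern came back in the next repeat, measured by other probes. Spacer tiles averaged 2.78 ± 1.31 in the outer repeat and 2.45 ± 1.24 in the inner one in clr4d, and 3.96 ± 1.22 and 3.39 ± 1.03 in cdc10-v50. The 28S gene of the outer and inner repeat averaged 0.03 ± 0.25 and 0.30 ± 0.44 in clr4d, against 1.67 ± 0.30 and 1.96 ± 0.58 in cdc10-v50. Tile pairs at the same place of the repeat (10800 bp apart, 70 bp short of the reference repeat) had correlated ratios, with r = 0.95 over 19 pairs in clr4d and 0.96 over 17 in cdc10-v50, but 0.21 over 16 in wild type. These pairs share their array and nearly all of their sequence, and the correlation is a description across sites.

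At the right end, tiles were grouped after their values were seen. The 5 tiles from 2448301 to 2450400 gave 2.32 to 3.72 in clr4d (mean 3.09 ± 0.63) and 3.94 to 5.33 in cdc10-v50 (mean 4.51 ± 0.57). The 9 tiles from 2441701 to 2448000 gave -1.06 to 0.40 in clr4d (mean -0.12 ± 0.45) and 0.66 to 1.91 in cdc10-v50 (mean 1.52 ± 0.41). That the sets do not overlap follows from the grouping. A further rise stood at 2440501 to 2441400, where 3 tiles averaged 2.07 ± 0.93 in clr4d and 2 measured tiles 2.98 ± 0.10 in cdc10-v50. The 3 outermost tiles, at 2451601, 2452501 and 2453701, gave 2.55, -0.12 and 0.27 in clr4d, while cdc10-v50 had 3.39, 1.40 and 2.04. The right end thus had stretches near the heights of both the spacer and the genes of the left end.

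Few probes of the genome were as high in clr4d. Of its 41538 probes 36 reached 3 (0.0867%), and 14 of these lay in the outer 25 kb of chromosome III, among 115 measured there. Of those 14 probes, 12 had another such probe within 1 kb; of the 22 elsewhere in the genome, 0 had one. In cdc10-v50, 22 of 110 probes of the outer 25 kb reached 3, against 1.5% of the genome's probes, and 554 of the 582 elsewhere had such a neighbour. In wild type 1 of 111 reached 3, against 0.2% of the genome. A ratio of 1 was reached by 71 of 111 wild-type probes (9.34% of the genome's), 43 of 115 clr4d probes (8.19%) and 73 of 110 cdc10-v50 probes (9.64%).

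GC content moved with place in the repeat, at 31.6% in spacer tiles and 46.1% in 28S tiles. Between 25 and 100 kb of the left end, the clr4d ratio changed by -0.38 per 10 points of GC (r = -0.32 over 245 tiles), and that of cdc10-v50 by 0.01 (r = 0.01 over 236). With that slope taken off, an adjustment added after the data were seen, the spacer exceeded the 28S gene by 1.98 in clr4d and by 1.98 in cdc10-v50. Within the outer 25 kb the slopes were steeper, -0.79 in clr4d (r = -0.49) and -0.48 in cdc10-v50 (r = -0.34). Those tiles are the spacer and the genes themselves, so GC content and place cannot be told apart there. The tiles between 18S and 28S had less GC than the spacer, 25.6%, and ratios of 0.38 and 1.27. What part of the spacer excess goes with GC content was not tested.

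The separate channels showed where the mutants differed. Spacer Cy5 was 2.91 ± 1.5 in clr4d and 3.12 ± 1.53 in cdc10-v50, and spacer Cy3 was 0.29 ± 0.71 and -0.53 ± 0.81. At the 28S gene Cy5 was 2.33 ± 0.74 and 2.22 ± 0.66, and Cy3 was 2.24 ± 0.76 and 0.55 ± 0.53. ChIP signal over rDNA, each against its array median, was thus close in the mutants, and input signal was higher in clr4d.

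**Figure D2:**
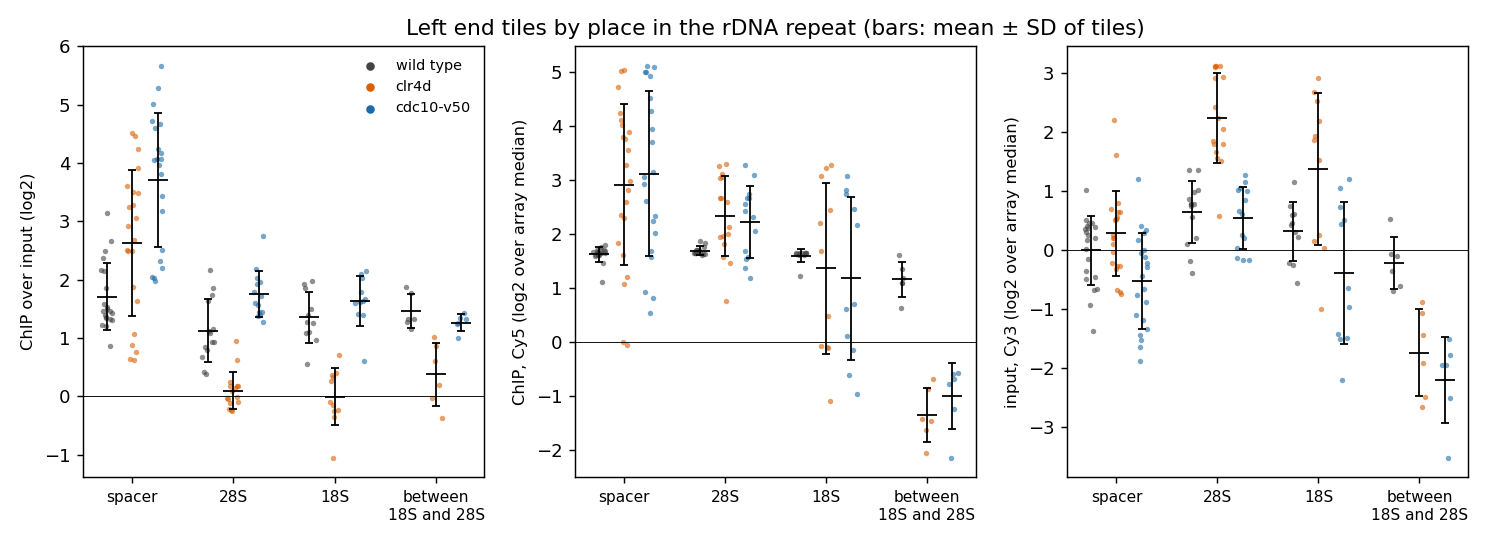
Log2 ratio (left), Cy5 (middle) and Cy3 (right) of left-end tiles in the spacer, the 28S gene, the 18S gene and the stretch between 18S and 28S; points are tiles, colours are arrays, black bars are mean ± SD of tiles. In the ratio panel clr4d is near 0 over the genes and at 2.63 in the spacer; in the Cy5 panel the mutants lie together, and in the Cy3 panel clr4d lies above cdc10-v50 over both genes.

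Per tile, the ratio of cdc10-v50 minus clr4d was 1.64 ± 0.13 at the 28S gene, higher in 14 of 14 tiles, and 1.65 ± 0.18 at the 18S gene, higher in 11 of 11. In the spacer it was 1.1 ± 0.71, higher in 20 of 21 tiles. Cy5 differed by -0.25 ± 0.36 at the 28S gene, by -0.19 ± 0.62 at the 18S gene and by 0.24 ± 0.64 in the spacer, and Cy3 by -1.82 ± 0.32, -1.76 ± 0.57 and -0.79 ± 0.48. The difference of the ratios over the genes was therefore almost all a difference of input, and it varied little from tile to tile. What the input difference comes from was not tested.

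Wild type could not be read in the same detail, because 49 of the 59 left tiles of the outer 25 kb were at the Cy5 ceiling. On those 49 tiles Cy5 lay between 1.59 and 1.86, and the ratio, from 0.38 to 3.14, followed the inverse of the input (r = 0.995 with minus Cy3, across tiles). The spacer averaged at least 1.71 ± 0.57 and the 28S gene at least 1.12 ± 0.54. Only 2 spacer tiles were below the ceiling, those next to the 18S genes at 1501 and 12301. They gave 1.51 and 1.54 in wild type, above clr4d and below cdc10-v50 there. Over the 28S gene clr4d minus wild type was at most -1.07 ± 0.68, lower in 14 of 14 tiles, and at the 18S gene -1.36 ± 0.73, lower in 10 of 11. The 5 tiles between 18S and 28S below the ceiling gave 1.52 ± 0.28 in wild type, against 0.42 ± 0.60 in clr4d, with cdc10-v50 at 1.25 ± 0.16. So the wild-type ratio exceeded that of clr4d over the rRNA genes even at its lower bound, in all tiles but 1. For the spacer the upper limit of clr4d over wild type was 0.91 ± 1.24. By channel, clr4d minus wild type at the 28S gene was 1.63 ± 0.74 in Cy3 and at most 0.64 ± 0.80 in Cy5. At the 18S gene it was 1.05 ± 1.02 in Cy3 and at most -0.23 ± 1.53 in Cy5. The lower clr4d ratio over these genes thus went with higher input, and the ceiling hides the size of the ChIP difference. The 5 tiles below the ceiling between 18S and 28S gave -1.55 ± 0.77 in Cy3 and -2.57 ± 0.29 in Cy5.

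In 5-kb steps, levels fell from the rDNA inwards at both ends, though not evenly. In both mutants the outermost step was the highest of its end. At the left clr4d gave 2.12 ± 1.78, cdc10-v50 3.31 ± 1.38 and wild type at least 1.62 ± 0.74. At the right clr4d gave 2.13 ± 1.67, cdc10-v50 3.30 ± 1.33 and wild type at least 1.75 ± 0.62. Of the probes in the outer 10 kb, 28 of 30 at the left and 12 of 12 at the right were at the wild-type ceiling, so wild-type steps there have no order. The left value of clr4d was the highest of all 2505 windows of 5 kb in that array, which are counted from the first base of each chromosome. A mean of at least 1 was reached by at least 11 of 40 wild-type steps, 4 clr4d steps and 10 cdc10-v50 steps, against 6.59%, 3.43% and 6.43% of all windows. From 25 to 50 kb the mean was 0.47, 0.56 and 0.34 at the left and 0.43, 0.08 and 0.34 at the right, in the order wild type, clr4d, cdc10-v50. From 50 to 100 kb it was 0.17, 0.03 and 0.24 at the left, and -0.21, -0.07 and -0.06 at the right. Shoulders stood inward of the rDNA. The left steps from 50 to 60 kb gave 0.85 and 1.01 in wild type and 0.96 and 0.83 in cdc10-v50, but 0.40 and 0.49 in clr4d. The right steps from 25 to 30 and 35 to 40 kb gave 1.1 and 1.30 in wild type and 1.14 and 1.14 in cdc10-v50, but 0.73 and 0.53 in clr4d. The lowest steps were 70 to 75 kb at the left in all arrays (-0.62, -0.74 and -0.41) and 50 to 55 kb (-0.83, wild type) or 45 to 50 kb (-0.97 and -0.57, mutants) at the right.

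**Figure D3:**
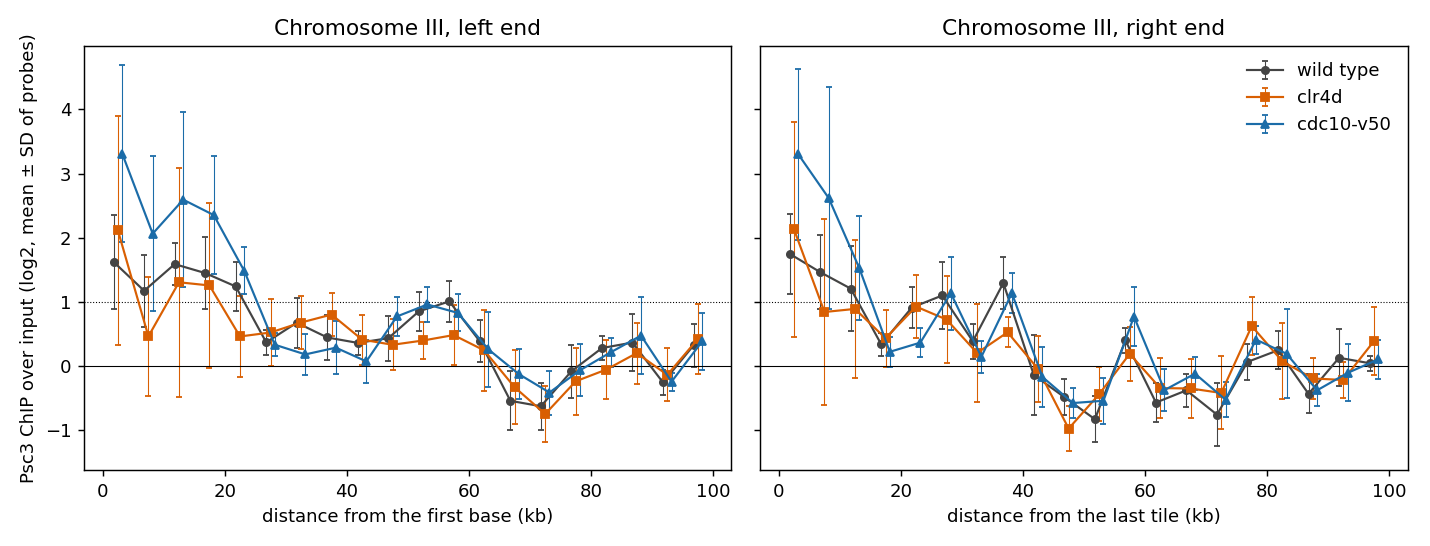
Mean log2 ratio ± SD of probes per 5-kb step against distance from the first base (left panel) or the last tile (right panel), for 3 arrays; the dotted line marks 2-fold. Both mutants are highest in the outermost step, cdc10-v50 at 3.31 and 3.30, where wild-type points are lower bounds with no order, and all arrays lie between -0.75 and 0.63 beyond 60 kb.

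Against wild type, clr4d was measured as higher by 1 in 0 of 40 steps and as lower by 1 in 0, against 0.0399% and 2.55% of all windows, and 35 of 40 differed by less than 0.5. At steps with probes at the ceiling a 2-fold fall may have been missed, and with normexp background correction 10% of steps were lower by 1, as were 7.5% of steps of 2.5 kb. The lowest differences were at 5 to 10 kb on the left, the 28S gene, at most -0.88 ± 0.77, at 20 to 25 kb on the left, at most -0.78 ± 0.86, and at 35 to 40 kb on the right, -0.77 ± 0.49, where no probe was at the ceiling and 15 of 17 fell. For cdc10-v50, 4 of 40 steps were higher by 1 (upper limits, 2 at each end in the outer 15 kb) and 0 lower, against 2.51% and 0.0798% of windows. Among steps with at most 1 probe at the ceiling, its lowest were 30 to 35 kb at the left, -0.48 ± 0.31, lower in 15 of 16 probes, and 20 to 25 kb at the right, -0.53 ± 0.26, lower in 16 of 16. Those steps lie just inward of the rDNA of their end, and part of their sequence is shared.

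Between the mutants, 7 of 40 steps were higher by 1 in cdc10-v50 and 0 lower, against 4.39% and 0.12% of windows; all lay in the outer 25 kb. The highest were 5 to 10 kb on each side, 1.54 ± 0.50 (15 of 15 probes) and 1.77 ± 0.30 (6 of 6). There Cy5 differed by -0.07 and -0.13 and Cy3 by -1.54 and -1.83. The lowest were again just inward of the rDNA, -0.52 ± 0.48 at 35 to 40 kb on the left and -0.57 ± 0.36 at 20 to 25 kb on the right, with Cy3 higher in cdc10-v50 by 1.02 and 0.84.

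By single channel, the steps with a 2-fold Cy5 difference lay elsewhere. For cdc10-v50 against clr4d, Cy5 was 2-fold higher in 5 of 40 steps and lower in 0, against 3.95% and 0.319% of all windows. These were the left steps from 45 to 60 kb (1.08, 1.06 and 1.07) and the right steps at 25 to 30 kb (1.28) and 35 to 40 kb (1.47), all inward of the rDNA. Cy3 was 2-fold lower in 5 steps (1.52% of windows), all in the outer 20 kb, and higher in 3 (0.16%). In the 5 shoulder steps Cy3 was higher in cdc10-v50 too, by 0.71, 0.54 and 0.79 at the left and by 0.94 and 0.93 at the right, and the ratio differed by 0.35 to 0.61. Over the outer 10 kb of both ends Cy5 differed by less than 0.2 per step, and Cy3 by -0.99 to -1.83.

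Against wild type, Cy5 of clr4d was higher in 1 step and lower in 5 (1.32% and 1.6% of windows). The higher step was 0 to 5 kb on the left (1.17), an upper limit, since 12 of 13 probes were at the wild-type ceiling. The lower steps without a probe at the ceiling were 30 to 35 kb on the left (-1.01) and 35 to 40 kb on the right (-1.22). Its Cy3 was higher in 2 steps, both in the outer 20 kb, and lower in 3 (1.28% and 0.12%), at 30 to 40 kb on the left and 20 to 25 kb on the right. For cdc10-v50 Cy5 was higher in 2 steps and lower in 0 (3.51% and 0.2%), and Cy3 was higher or lower in 0 (0.0798% and 0.319%). Those Cy5 steps lay on the left, at 0 to 5 kb (1.30, again an upper limit) and at 65 to 70 kb (1.03, with 0 probes at the ceiling).

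The ends of chromosomes I and II, where the outer sequence is subtelomeric heterochromatin, had other levels in the mutants than those of chromosome III. In the outer 10 kb, clr4d had 1.18 ± 1.57 at the left and 1.49 ± 1.64 at the right end of chromosome III, but 0.04 to 0.16 at the 4 other ends. In cdc10-v50 the ends of chromosome III gave 2.64 ± 1.42 and 2.96 ± 1.51, against 3.53 to 4.76. Wild type was at its ceiling at nearly every probe of all 6 ends, with Cy5 from 1.64 to 1.7, so its means (at least 1.39 ± 0.68 and 1.62 ± 0.59 at chromosome III, at least 1.99 to 2.39 at the others) cannot be ranked. The mean at chromosome III hides 2 kinds of tile, spacer and gene, and the median over probes in clr4d was 0.51 at the left and 1.31 at the right.

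**Figure D4:**
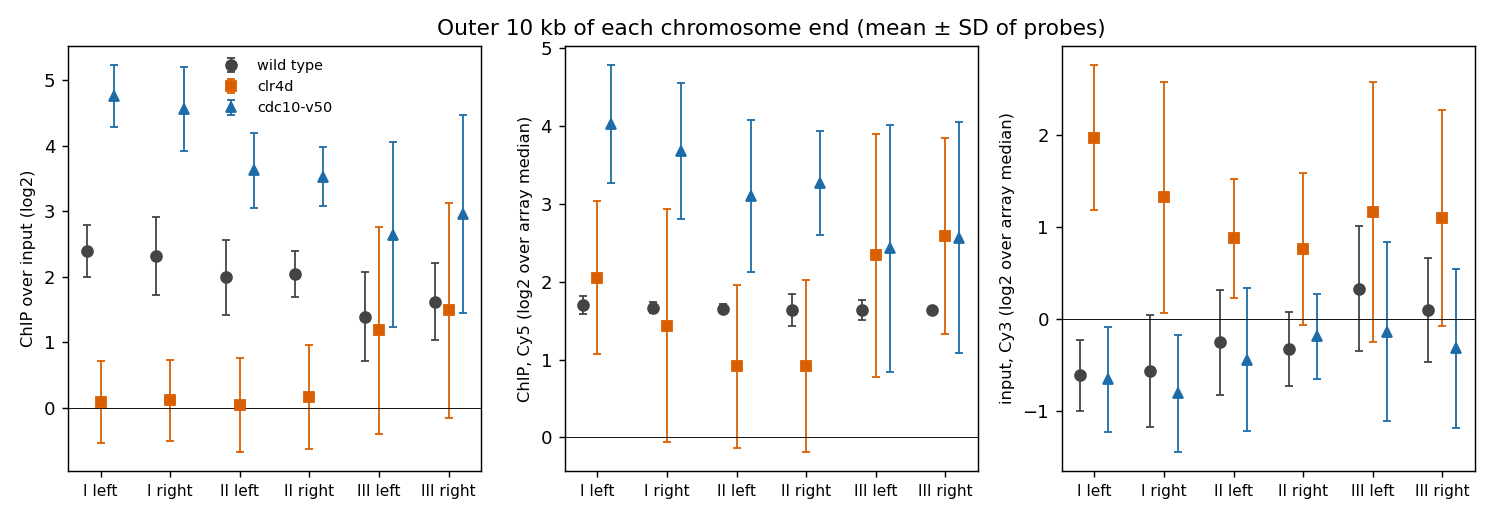
Mean ± SD of probes over the outer 10 kb of the 6 chromosome ends on the array, as log2 ratio (left), Cy5 (middle) and Cy3 (right). The clr4d ratio is between 0.04 and 0.16 at chromosomes I and II and at 1.18 and 1.49 at chromosome III, where clr4d Cy5 is level with cdc10-v50.

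The mutants differed in both channels at the ends of chromosomes I and II, but almost only in input at those of chromosome III. Input was lower in cdc10-v50 than in clr4d at every end. At chromosomes I and II, cdc10-v50 minus clr4d was 3.46 to 4.73 in the ratio, 2.05 to 2.44 in Cy5 and -2.61 to -0.95 in Cy3. At chromosome III it was 1.38 ± 0.62 and 1.47 ± 0.49 in the ratio, 0.02 ± 0.59 and -0.02 ± 0.48 in Cy5, and -1.29 ± 0.75 and -1.42 ± 0.59 in Cy3. Thus the ChIP channel separated the mutants at the other ends and not here. The clr4d minus wild type ratio was at most -0.22 ± 1.39 and -0.01 ± 1.38 at chromosome III and at most -2.31 to -1.87 at the other ends.

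Inward of the rDNA the left end held 29 protein-coding genes, 27 with at least 3 probe centres; gene models overlap at some 3′ ends, so neighbours share probes. Their median level was 0.40, 0.21 and 0.30 for wild type, clr4d and cdc10-v50, against -0.08, 0.02 and -0.02 for 320 genes between 100 and 1000 kb. The highest in wild type was ctt1, the catalase gene, at 1.29 ± 0.15, with 0.38 ± 0.20 in clr4d and 0.96 ± 0.23 in cdc10-v50 (7 probes, 3 at the wild-type ceiling). Its neighbours were SPCC757.05C, a peptidase gene annotated to glutathione catabolism, at 1.04 ± 0.15, 0.31 ± 0.21 and 0.93 ± 0.27, and SPCC757.04, annotated as a transcription factor gene, at 0.84 ± 0.28, 0.46 ± 0.16 and 1.09 ± 0.29. Next came meu23, at 0.81 ± 0.12, 0.78 ± 0.49 and 0.72 ± 0.11, and SPCC1884.01, at 0.67 ± 0.39, 0.53 ± 0.27 and 0.36 ± 0.21. The first 3 of these make up the left shoulder, where clr4d was lower than the other arrays.

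**Figure D5:**
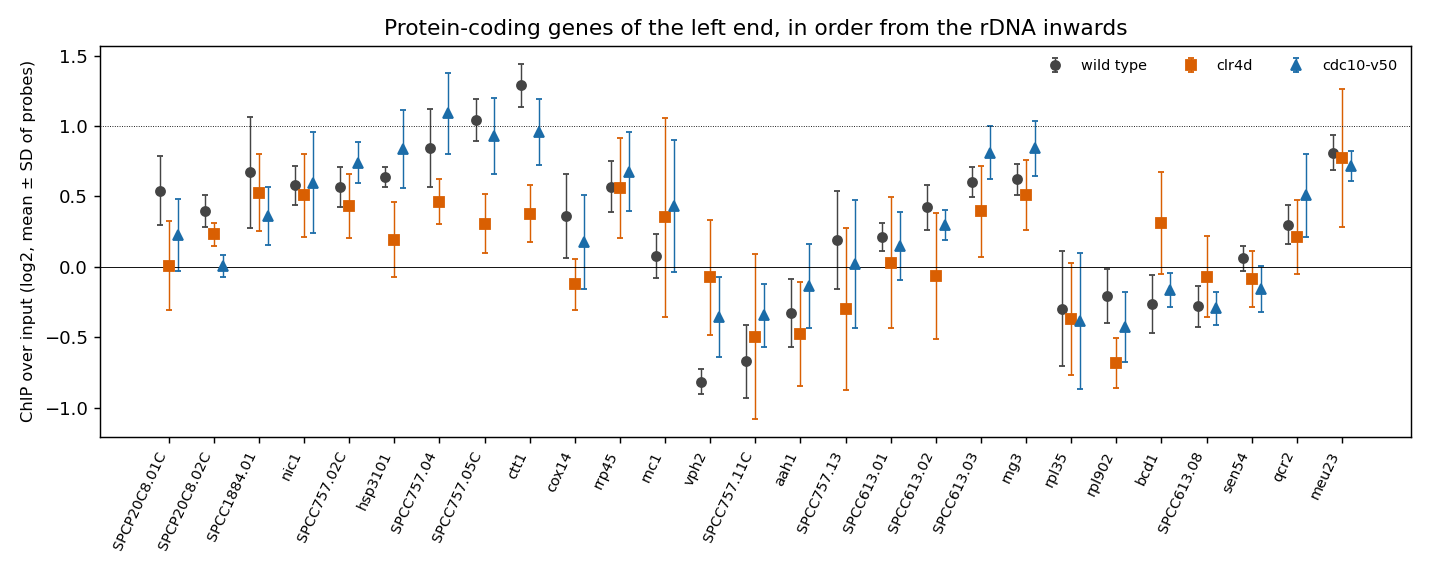
Mean log2 ratio ± SD of probes of 27 protein-coding genes of the left end, ordered from the rDNA inwards, in 3 arrays. The genes from SPCC757.04 to ctt1 lie near 1 in wild type and cdc10-v50 and between 0.31 and 0.46 in clr4d; vph2 and SPCC757.11C lie below 0 in all arrays.

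As measured, 0 of the 27 genes differed by 2-fold in any of the 3 comparisons, where 0.862% of 348 genes up to 1000 kb were higher and 1.44% lower in clr4d than in wild type, 0.287% and 0.862% in cdc10-v50 than in wild type, and 0.287% and 0% in cdc10-v50 than in clr4d. In clr4d against wild type 22 of 27 were below 0 (median -0.15, against 0.09 between 100 and 1000 kb). With every probe alike, the largest falls were those of ctt1 (-0.91), SPCC757.05C (-0.74) and SPCP20C8.01C (-0.53), with cox14, for cytochrome c oxidase assembly, at -0.49 and rpl902, for ribosomal protein L9 of the large subunit, at -0.48. The 2 rises with every probe alike were vph2, for assembly of the vacuolar ATPase, by 0.74 and bcd1, for snoRNA biogenesis, by 0.57. A fall or rise of a gene here means that all its probes had that sign, not a test. SPCP20C8.01C and SPCP20C8.02C lie in the steps from 25 to 30 and 30 to 35 kb. There 98.4% and 42.1% of words occur elsewhere in the reference. All 3 probes of each carried an f or m mark, so values of both genes may pool other copies of their sequence. The falls at ctt1 and SPCP20C8.01C are minimum sizes, since 3 of 7 and 2 of 3 probes were at the wild-type ceiling, so a 2-fold fall at ctt1 may have been missed; with normexp 1 gene differed by 2-fold between clr4d and wild type.

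In cdc10-v50 against wild type the median was -0.01. The largest rises were 0.53 at vph2, 0.25 at SPCC757.04, 0.21 at qcr2, for a subunit of respiratory complex III, and 0.18 at SPCC757.02C. The largest falls were -0.39 at SPCP20C8.02C, -0.33 at ctt1 and -0.31 at SPCP20C8.01C, with sen54, a subunit of the tRNA-splicing endonuclease, at -0.22 and meu23 at -0.16. Values at SPCP20C8.01C and SPCP20C8.02C may again pool other copies of their sequence. Between the mutants, hsp3101, for a glyoxalase, was higher in cdc10-v50 by 0.64, SPCC757.04 by 0.63 and SPCC757.05C by 0.62, and bcd1 was lower, at -0.48, as was SPCP20C8.02C, at -0.22. The stretch from 50 to 75 kb matched the reference best at a move of 370 bp. With it ctt1 gave 1.31, 0.52 and 1.00 and SPCC757.05C 1.11, 0.40 and 1.1, but the rise of clr4d over wild type at vph2 shrank to 0.25.

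Of the gene lists considered, 0 wtf genes, 0 Tf2 elements and 0 genes of cohesin and its regulators lie in the reference's left end. Both ribosomal protein genes were low: rpl35 at -0.30, -0.37 and -0.38, and rpl902 at -0.21, -0.68 and -0.43. The histidine tRNA gene SPCTRNAHIS.03 was covered by 2 tiles, at -0.83, -0.82 and -0.51. Of 5 transporter genes, nic1, for nickel and cobalt uptake, gave 0.58, 0.51 and 0.60, SPCC613.02 gave 0.42, -0.07 and 0.30, and SPCC757.11C gave -0.67, -0.50 and -0.35, while SPCC757.13 and SPCC613.01 lay between -0.30 and 0.21. Of 4 LTRs 3 had tiles, 2 each, with means from -0.07 to 0.33 in wild type, -0.16 to 0.65 in clr4d, and -0.05 to 0.55 for cdc10-v50. Among intervals between adjacent genes, the 7 convergent intervals averaged 0.40 ± 0.66, 0.65 ± 0.42 and 0.66 ± 0.57, and the 6 divergent ones -0.18 ± 0.75, -0.31 ± 0.64 and -0.09 ± 0.61, again in the order wild type, clr4d, cdc10-v50; these spreads overlap. Between 100 and 1000 kb, 89 convergent intervals averaged 0.18, 0.49 and 0.36 and 89 divergent ones -0.52, -0.31 and -0.33.

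Peaks were runs of 3 or more probes with a running mean of 1 or higher. Over both ends wild type had 11, clr4d 9 and cdc10-v50 12. Of the wild-type peaks 7 overlapped a clr4d peak (63.6% of wild-type and 77.8% of clr4d peaks), and 9 overlapped a cdc10-v50 peak (81.8% and 75%). Over the 3 chromosomes, 58.6% of 304 wild-type peaks overlapped a clr4d peak, and 74.3% a cdc10-v50 peak. A wild-type peak was overlapped there by 55.5% of clr4d peaks and 69.5% of cdc10-v50 peaks. The shares of wild-type and cdc10-v50 peaks at the ends were near these. That of clr4d peaks was higher, but rests on 9 peaks. The spacer of each left repeat held the highest clr4d peaks, with heights of 4.21 and 3.80, and the right end one of 3.37; in cdc10-v50 the heights there were 4.63 at the left and 4.49 at the right. Outside the rDNA, the left end had wild-type peaks at 51601 to 53700 (mean 1.08, with 0.41 in clr4d and 1.12 in cdc10-v50) and at 56101 to 58500 (at least 1.27, with 0.62 and 1.01). In clr4d the latter spanned only 55801 to 56700, whose 3 tiles averaged 1.18 in clr4d and 1.00 in each of the others. With no move these tiles cover the interval between SPCC757.06 and ctt1, part of which is printed above. At the move of 370 bp that matched 50 to 75 kb best, they would lie further into ctt1.

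The right end had a peak at 2413501 to 2418000, with a mean of 1.43 over 15 probes in wild type, against 0.51 in clr4d and 1.21 in cdc10-v50. Its neighbour at 2425201 to 2429400 gave 1.31, 1.08 and 1.32. Just inward of the rDNA of each end stood a wild-type peak that a clr4d peak overlapped and no cdc10-v50 peak did. These lay at 32401 to 33600 at the left (1.15, 1.04 and 0.43) and at 2430901 to 2432700 at the right (1.13, 0.96 and 0.35). At the right the clr4d peak, from 2426401 to 2431200, met only the inner edge and also overlapped the neighbour. Between 30 and 35 kb of the left end 41.8% of words recur at the right end, so these peaks may not be separate observations. Peaks that overlapped none of the other arrays numbered 2 of 9 in clr4d (31.6% over the 3 chromosomes) and 3 of 12 in cdc10-v50 (17.4%). Those of clr4d lay at the right end, at 2376901 to 2377800 (1.27, with -0.27 in wild type and 0.55 in cdc10-v50) and at 2420701 to 2421600 (1.34, with 0.34 and 0.47). Those of cdc10-v50 lay at 46801 to 47700 at the left (1.31, with 0.71 in wild type and 0.81 in clr4d), and at 2372701 to 2373600 (1.2, with 0.53 and 0.86) and 2394901 to 2396700 (mean 1.2, with 0.52 and 0.48) at the right.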

How the data were processed

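The scanner files hold spot intensity values that the authors deposited as read by Agilent Feature Extraction, per the file headers; the mutants' version was 11.5.1.1 and that of wild type 11.0.1.1. Their processed intensity is background-subtracted and dye-normalized. The log10 ratio of red over green in the deposited scanner files comes from these signals. The deposited value table holds log2 values equal to minus the scanner ratio within 0.001 on all 41551 probes of each array, with medians of -0.17, 0.04 and 0.06, uncentred. From these, log2 of processed Cy5 over Cy3 was centred on each array's median over genome probes, leaving out 1417 control spots and non-uniform spots (62, 9 and 1215); the quality summary marked cdc10-v50 for evaluation. Steps are means over probes, a call is 2-fold, and peaks join within 1 kb. Genes had at least 3 probe centres inside; named genes were the 5 highest in wild type, up to 5 rises and 5 falls against wild type and 3 each way between mutants with every probe alike, and list members. Members, lists and alternatives were chosen with earlier results of these data known. The scripts were tested on simulated data. Alternatives included normexp (limma 3.58.1, offset 50) on the median foreground, since the files hold no mean signal, loess and omission of saturated or marked probes. Tools were Python 3.11.15 and R 4.3.3. Per-sample columns not used numbered 0. The number of arrays limits precision.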

Additional observations from a re-analysis of the deposited data

How the results depend on the processing

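A value was counted as moved when it changed by more than the SD between probes, and a count when it changed by over 1.5 times. Of 478 values of 53 results under 26 settings, 448 stayed and 30 moved, and no value of 1 or more in size changed sign. This rule is loose where probes vary widely. For the clr4d ratio of the outer 10 kb the SD was 1.57 at the left and 1.64 at the right. Large changes there, such as that from mean to median at the left, thus counted as stayed. Values that could not be computed were not counted. Where saturated probes were left out, steps at 1 or more were 16.2% in wild type and 2.7% in clr4d, steps lower in clr4d than wild type 2.7%, and steps higher in cdc10-v50 0% against wild type and 5.41% against clr4d. Without probes marked f or m in their names, whose meaning was not given in the sources used here, the outer 10 kb gave no value, and steps at 1 or more were 10.7%, 0% and 7.14% for wild type, clr4d and cdc10-v50, with 0% of steps higher in cdc10-v50 than in either array. With steps of 10 kb, 15% of cdc10-v50 steps reached 1. With steps of 2.5 kb, 3.75% were higher and 7.5% lower in clr4d than in wild type. Over the outer 50 kb, 50%, 20% and 50% of steps reached 1 in that order, and cdc10-v50 was higher in 20% against wild type and 35% against clr4d. Loess gave 12.5% in wild type. Normexp raised wild-type Cy5 of the outer 10 kb to 2.19 (left) and 2.23 (right), made 10% of steps lower in clr4d than in wild type and 1 gene differ by 2-fold; without centring 2.5% of steps were lower. At a peak threshold of 1.5 peaks numbered 6, 4 and 7, with 4 and 4 wild-type peaks shared, and at 0.8 clr4d had 14. The causes were not tested. The spacer over the 28S gene ranged from 1.98 to 3.02 in clr4d and from 1.90 to 2.38 in cdc10-v50; it could not be computed without saturated or marked probes. No paired analysis was possible because each group has 1 array.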
